A study of Mus musculus with 20 samples.

Results

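Transcripts that set the mouse 2-cell embryo apart were sought by comparing the 4 arrays titled 2-Cell with the 16 arrays of the 4 other stages in the series, out of 20 arrays in all. The other stages were Oocyte, 1-Cell, 8-Cell and Blastocyst, with 4 arrays each, and each stage carried the same weight in the comparison. Every array was hybridized with total RNA from preimplantation mouse embryos or oocytes after 2 rounds of amplification by in vitro transcription, on the Affymetrix MOE430A expression array. The labels name no strain, age, hormone treatment or hour after fertilization, so an early and a late 2-cell embryo are not distinguished, and neither the embryos behind an array nor separate collections of the replicates are stated. The p-values below therefore measure only the spread among the samples at hand. That spread may be technical, and with 4 arrays a stage its precision is limited. All groups are whole embryos or oocytes, so fewer cells of a type and less RNA per cell cannot be told apart.

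The oocyte carries a stock of maternal transcripts that directs the first divisions and is then degraded. In the mouse, the main wave of transcription from the embryo's own genome begins at the 2-cell stage, and a set of genes and retroviral elements is transcribed in a short burst at this stage. Zfp352, the Tdpoz genes and the Tcstv genes are known members of that burst. Later stages compact, form the first epithelium and separate the trophectoderm from the inner cell mass.

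The values are the authors' linear probe set intensities, analysed as log2(intensity + 12.15), and all differences below are 2-cell minus other on this scale, which understates differences of dim genes. A gene is called higher or lower when limma's moderated test (two-sided) of its difference from the mean of the other 4 stages gave a p below 0.05 after Benjamini-Hochberg adjustment. It is called highest or lowest at the 2-cell stage when it passed the same test against each of the 4 other stages in the same direction. These 4 comparisons share the 2-cell arrays. Errors of intensities are SDs over 4 arrays, and errors of differences are moderated standard errors.

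The 2-cell arrays were alike and did not stand apart in brightness. They correlated with each other at 0.941 to 0.96 across probe sets, with 1-cell arrays at 0.681 to 0.788 and with 8-cell arrays at 0.675 to 0.788. With oocyte arrays they correlated at 0.736 to 0.793 and with blastocyst arrays at 0.625 to 0.703. The mean was highest with the oocyte (0.757), against 0.732 with the 1-cell and 0.726 with the 8-cell stage. The median intensity was 50.4 to 55.4 on the 2-cell arrays and 36.5 to 58.1 on the others. The ratio of 3′ to 5′ signal of beta-actin, a sign of RNA quality and amplification, averaged 4.63 ± 0.622 in 2-cell embryos, and its means elsewhere ran from 1.99 to 4.74. The same ratio for Gapdh averaged 5.43 ± 0.603 in 2-cell and 1.28 ± 0.468 in 8-cell embryos, where it ran from 0.777 to 1.86, and 4.7 to 5.81 elsewhere, and its part in the differences from the 8-cell stage was not tested. The 1-cell arrays stood apart in 1 control measure. The middle 18S ribosomal RNA probe set read 639 ± 116 in 2-cell embryos, 12665 ± 1877 in 1-cell embryos and 196 to 851 on average elsewhere. Its part in the differences from the 1-cell stage was not tested.

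Of 10251 genes tested, 2481 were higher (24.2%) and 2029 lower (19.8%) at the 2-cell stage than the mean of the other stages. Fewer were separate from every stage: 439 genes (4.28%) were highest and 282 genes (2.75%) lowest at the 2-cell stage. Of the 2481 higher genes, 651 were at the same time called lower than at least 1 other stage. The genes below are therefore described against each stage. By probe set, 4259 of 17193 were higher (24.8%) and 3340 lower (19.4%), 759 were highest (4.41%) and 454 lowest (2.64%), and 345 (2.01%) and 114 (0.663%) of these were at least 2-fold from each stage. Accordingly, 56% of the called probe sets were higher. That share was 49.2% after quantile normalization, 44.7% after centring on the array median and 46.5% after scaling to the added hybridization controls. The same 3 scalings moved the median difference over all genes from 0.04 to -0.07, -0.10 and -0.10.

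The nearest neighbour of the highest genes was most often the 8-cell stage. The 8-cell mean came closest for 206 of the 439 genes, the 1-cell mean for 91, the oocyte mean for 73 and the blastocyst mean for 69. The margin to that nearest stage had a median of 0.91, with a middle range over the genes of 0.69 to 1.29. For 193 genes (1.88% of all tested) it was at least 2-fold to each stage. Of the 282 lowest genes, 108 were nearest to the 8-cell, 95 to the 1-cell, 55 to the oocyte and 24 to the blastocyst mean, with a median margin of -0.76, and 75 (0.732%) lay at least 2-fold below each stage. Without any overlap of single arrays, 397 genes (3.87%) had all 4 2-cell values above the other 16 and 209 (2.04%) had all 4 below them. Scaled to the hybridization controls, 200 genes were highest and 73 lowest. Of the 439 highest genes, 53 passed the intensity filter (33.0 on at least 4 arrays) only through their 2-cell arrays. Among all 10251 genes tested, 238 passed in this way. The filter selected such genes for their 2-cell values, although not all of them were highest. Among the 193 genes at least 2-fold above each stage, 39 passed only in this way, so their margins are no separate support. Of the 53, those named below are Zfp352, Spz1, Ifng, Bid, Gadd45a, Gm20767 and BC147527, and all 7 were also highest with no filter.

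**Figure D1:**
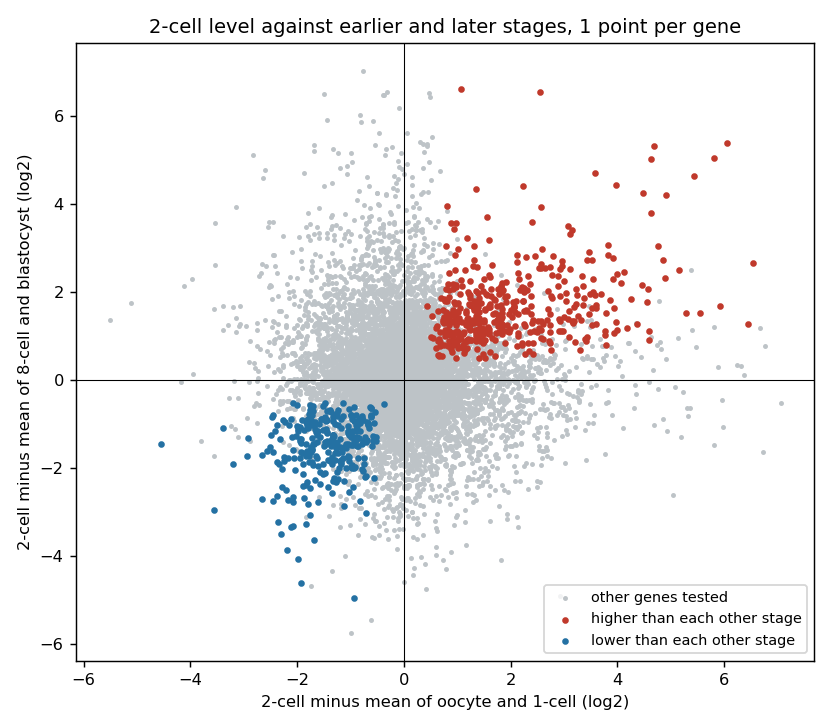
Each point is 1 of 10251 genes, placed by its 2-cell level minus the mean of oocyte and 1-cell (horizontal axis, log2) and minus the mean of 8-cell and blastocyst (vertical axis, log2). The 439 genes highest at the 2-cell stage (red) and the 282 lowest (blue) sit in opposite corners, and the grey points are genes that were neither.

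The genes with the widest margins above every other stage were led by Zfp352, which encodes a zinc finger protein known from the 2-cell burst. Its intensity was 2417, 2063, 1530 and 1968 on the 4 2-cell arrays, and its other values ran from 7.1 through a median of 25.9 to 67.5. All 4 2-cell arrays were high and none of the other 16 approached them, the 8-cell stage being nearest at 46.2 ± 22.5. The difference was 5.73 ± 0.22 (adjusted p = 3.4e-17), and both probe sets of the gene were highest at the 2-cell stage.

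Spz1, which encodes a basic helix-loop-helix factor first described in testis, read 924, 771, 493 and 732 at the 2-cell stage, against a median of 4.7 and a highest value of 40.6 on the other arrays. It was near the bottom of the scale in oocytes (3.5 ± 1.29) and 1-cell embryos (5.83 ± 2.37), and 37.1 ± 3.75 remained at the 8-cell stage. Its difference was 5.04 ± 0.19 (adjusted p = 2.25e-17). Tdpoz1, of the family of TRAF-domain and BTB-domain proteins that act in protein turnover, read 710, 782, 486 and 615, against at most 54.8 elsewhere (difference 4.56 ± 0.22, adjusted p = 4.12e-15). Like Zfp352 and Spz1, it was nearest to its 2-cell level at the 8-cell stage. Obox3, an oocyte-specific-type homeobox gene, read 993, 1017, 744 and 898, against at most 111 elsewhere. Its nearest stage was the 1-cell embryo (83.9 ± 26.9), which separates it from the other 3, and its difference was 4.15 ± 0.19 (adjusted p = 1.37e-15).

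The upstream sequences of 3 of these genes are shown together with those of 2 proteasome genes that were lowest at the 2-cell stage, so that both ends of the comparison can be read side by side. They are the 250 bases before the first listed transcription start, from RefSeq on GRCm38.p6, written 5′ to 3′ on the gene's strand, for Zfp352 (chr4:90218570-90218819, plus strand), Tdpoz1 (chr3:93676284-93676533, minus), Obox3 (chr7:15639778-15640027, minus), Psma7 (chr2:180042465-180042714, minus) and Psmb3 (chr11:97703184-97703433, plus). Capitals mark exact matches on either strand to TATAAA (letters of the TATA box), GGGCGG (of the GC box), CCAAT (of the CCAAT box) and GGATTA (the core recognised by bicoid-type homeobox factors).
Zfp352: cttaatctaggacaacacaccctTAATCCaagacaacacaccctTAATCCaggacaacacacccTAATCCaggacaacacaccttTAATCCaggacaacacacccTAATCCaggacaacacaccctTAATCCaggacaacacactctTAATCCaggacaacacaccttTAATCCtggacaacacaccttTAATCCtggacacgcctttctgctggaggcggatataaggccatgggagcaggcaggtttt
Tdpoz1: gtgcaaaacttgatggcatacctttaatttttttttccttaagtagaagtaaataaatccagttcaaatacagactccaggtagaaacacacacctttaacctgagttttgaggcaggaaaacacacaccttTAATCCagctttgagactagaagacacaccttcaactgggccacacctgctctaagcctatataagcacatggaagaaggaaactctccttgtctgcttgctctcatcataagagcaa
Obox3: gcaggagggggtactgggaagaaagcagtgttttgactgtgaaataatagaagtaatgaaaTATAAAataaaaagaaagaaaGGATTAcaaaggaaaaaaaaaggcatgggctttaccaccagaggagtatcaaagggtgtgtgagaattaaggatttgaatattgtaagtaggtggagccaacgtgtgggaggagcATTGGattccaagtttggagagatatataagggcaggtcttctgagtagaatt
Psma7: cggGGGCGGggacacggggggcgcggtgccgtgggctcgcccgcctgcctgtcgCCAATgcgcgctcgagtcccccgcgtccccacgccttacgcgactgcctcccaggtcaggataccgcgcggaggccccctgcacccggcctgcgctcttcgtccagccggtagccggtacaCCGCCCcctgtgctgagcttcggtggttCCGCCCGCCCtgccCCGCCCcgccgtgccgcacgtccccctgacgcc
Psmb3: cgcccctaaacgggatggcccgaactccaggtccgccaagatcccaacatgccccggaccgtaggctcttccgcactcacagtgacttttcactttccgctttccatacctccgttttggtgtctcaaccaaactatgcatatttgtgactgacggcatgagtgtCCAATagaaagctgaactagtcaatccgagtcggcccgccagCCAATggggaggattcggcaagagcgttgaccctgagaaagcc
The Zfp352 window holds 9 matches to GGATTA, each on the opposite strand and each in a copy of a short repeat. Tdpoz1 holds 1 such match and Obox3 holds 1 on the gene's strand, together with 1 TATAAA and 1 CCAAT match. The TATAAA match of Obox3 lies in the part of the window far from the start. Nearer the start, the Zfp352, Tdpoz1 and Obox3 windows each hold the similar letters atataag, which are not an exact match and are not marked. Whether any of these stretches acts as a TATA box was not tested. Psma7 has no GGATTA but 5 GGGCGG matches, of which a pair overlaps, and 1 CCAAT match, in a window of 77.2% G and C, whereas Zfp352 has 47.2%. Psmb3 holds 2 CCAAT matches and none of the other 3 motifs.

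Over the promoter windows of 300 bases (250 before to 50 after the start), GGATTA was present in 36 of 367 windows of the highest genes (9.81%), in 16 of 231 of the lowest genes (6.93%) and in 462 of 8271 of all genes tested (5.59%). TATAAA was present in 8.72%, 8.66% and 8.63% of the same sets, GGGCGG in 66.2%, 64.1% and 61.3%, and CCAAT in 42.5%, 39% and 37.8%. The median share of G and C was 60.3%, 60% and 60.3%. These are counts of letters on either strand with no test, and a match is not a bound site.

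**Figure D2:**
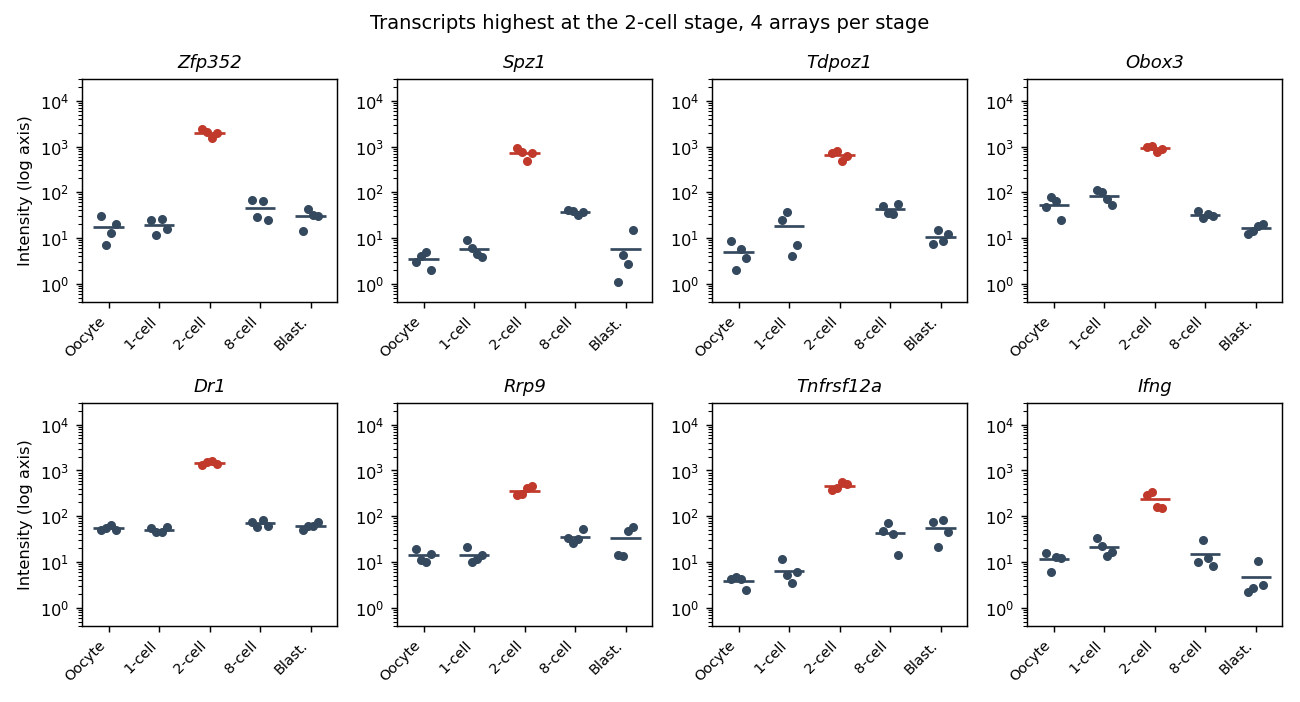
Intensity on each of the 20 arrays (log axis) for 8 genes with wide margins above every other stage, with 4 points per stage and a bar at the stage mean. The red 2-cell points lie above all 16 others in every panel, and for Zfp352, Spz1 and Tdpoz1 the 8-cell mean is the next highest.

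The other genes of this kind came from several parts of the cell. Dr1, which encodes the NC2 beta repressor of TATA-binding protein, read 1305, 1494, 1624 and 1379 at the 2-cell stage and 45.4 to 81.8 on all other arrays, a flat low level at every other stage (difference 4.37 ± 0.14, adjusted p = 5.2e-19). Its second probe set differed by 1.98 and was not highest. Rrp9, a component of the U3 particle that processes ribosomal RNA, read 286, 306, 414 and 450, against at most 59.1 elsewhere (3.45 ± 0.23, adjusted p = 1.39e-12). Tnfrsf12a, the receptor of the cytokine TWEAK, read 374, 411, 548 and 517, and its next highest stage was the blastocyst at 55.5 ± 27.4 (3.91 ± 0.24, adjusted p = 3.24e-13). The oocyte values of Tnfrsf12a were 2.5 to 4.6, so the transcript was close to the floor before the 2-cell stage.

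Ifng, which encodes interferon gamma, read 290, 338, 156 and 155 at the 2-cell stage and at most 32.9 elsewhere (3.28 ± 0.23, adjusted p = 4.73e-12). No other array reached the filter, so Ifng was tested only through its 2-cell arrays. Arrays 1 and 2 were brighter than arrays 3 and 4, and all 4 stood above the other stages. Fundc1, a mitochondrial outer membrane receptor for mitophagy, read 3873, 3050, 1702 and 1928, against at most 204 elsewhere (4.21 ± 0.18, adjusted p = 1.34e-16), but its second probe set had a difference of -0.69. Hmgn3, a nucleosome-binding protein, differed by 2.79 ± 0.21 (adjusted p = 1.24e-11) and Zfp54, a zinc finger gene, by 3.19 ± 0.24 (adjusted p = 1.81e-11).

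Zinc finger genes were frequent among the highest genes. Of 140 tested genes whose symbol begins with Zfp and a digit, 54 were higher (38.6%, against 24.2% of all genes) and 19 lower (13.6%, against 19.8%). Among the 140, 19 were highest (13.6%, against 4.28% of all genes) and 3 lowest (2.14%, against 2.75%). Of the 19 highest, 3 passed the filter only through their 2-cell arrays. This group was chosen after its values were seen and has no test. Zfp51 lies next to Zfp54 on chromosome 17 and was also highest (1.48 ± 0.20), although its 2-cell values of 310 to 340 overlapped the highest other array, at 355. It was no longer highest without replicate 1 or without replicate 4 of the 8-cell arrays, or when scaled to the hybridization controls.

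Neighbouring genes were highest together at 1 place above all. On chromosome 13, 8 tested genes in a row were highest at the 2-cell stage: Zfp131, AF067063, D13Ertd608e, Tcstv1, Gm20767, AF067061, BC147527 and Tcstv3. Most belong to a family of near-identical copies, of which the Tcstv genes are known from the 2-cell burst, so a probe set can detect several of them and the values of single copies are uncertain. D13Ertd608e was the brightest, with 5800, 6352, 4583 and 5432 at the 2-cell stage and at most 336 elsewhere (5.0 ± 0.16, adjusted p = 7.57e-19). AF067063 read 3033, 2492, 1648 and 2098 against at most 189, and Gm20767 read 665, 501, 239 and 404 against at most 18.9, the latter with a difference of 4.83 ± 0.22 for a gene that passed the filter only through its 2-cell arrays.

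The members of this group differed in how they behaved outside the 2-cell stage. AF067061 was already present in oocytes (394 ± 63.0) and 1-cell embryos (423 ± 91.0) before it read 3365, 3282, 1595 and 1913 at the 2-cell stage, and it was 27.8 ± 19.4 at the 8-cell stage. AF067063 had the reverse order, with 33.5 ± 7.25 in oocytes and 140 ± 46.0 at the 8-cell stage. Tcstv1 read 622, 341, 169 and 297, and the lowest of these overlapped the oocyte and 1-cell values, which reached 208. Tcstv1 was no longer highest without 2-cell replicate 1, and neither it nor Zfp131 was highest when scaled to the hybridization controls. Tcstv3 (855, 511, 279 and 506, against at most 107) showed no such overlap and differed by 3.25 ± 0.22 (adjusted p = 2.01e-12). Replicate 1 was the brightest and replicate 3 the dimmest 2-cell array for AF067063, Tcstv1, Tcstv3 and Gm20767. In all, 55 of the 439 highest genes lay in 24 runs of adjacent tested genes, among them the 8 of this row, and 17 of the 282 lowest genes in 8 runs. Some genes with the same call are adjacent by position alone. How many would be was not worked out, so these counts are not read as clustering.

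Among genes listed for activation at the 2-cell stage, 12 of 14 tested members were higher (85.7%, against 24.2% of all genes) and 1 was lower (7.14%, against 19.8%). Of the same 14, 8 were highest (57.1%, against 4.28% of all genes). The median difference was 2.31, against 0.04 over all genes, and it lay between 2.17 and 2.32 under the 3 other scalings. The 8 were Zfp352, Spz1, Tdpoz1, Usp17la, Tcstv1, Tcstv3, Hspa1a and Ddit4l. The list was drawn up from what is known of this stage and with results of these arrays known. Usp17la, a deubiquitinase gene of a multicopy family, read 907, 788, 403 and 544 against at most 158 elsewhere (2.81 ± 0.21, adjusted p = 1.29e-11). Ddit4l, an inhibitor of mTOR signalling, read 503, 438, 357 and 387 against at most 204 (2.77 ± 0.17). Sp110, a nuclear body gene, averaged 1005 ± 156 in 2-cell and 919 ± 206 in 8-cell embryos, so it was higher than the mean of the others (2.04 ± 0.16) without passing the test against the 8-cell stage.

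Eif1a, a translation initiation factor described as an early transcript of the embryonic genome, was the exception on its representative probe set. It read 96.1, 94.4, 70.5 and 104 at the 2-cell stage, 66.4 ± 23.7 in oocytes, 55.3 ± 11.1 in 1-cell and 425 ± 73.6 in 8-cell embryos. Its difference of -0.81 ± 0.17 (adjusted p = 0.000264) was lost without the 8-cell or without the blastocyst arrays in the mean, and its second probe set differed by 1.20. Other transcripts may share the first probe set.

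Genes of stress responses and the p53 pathway were also found among the highest. Hspa1a and Hspa1b, near-identical inducible Hsp70 genes, read 538, 527, 350 and 457 and 1081, 964, 786 and 795 at the 2-cell stage, and probe sets for them may detect both. The 1-cell mean of Hspa1b was 84.3 ± 21.5. At the 8-cell stage Hspa1b spread from 572 to 1698 on the 4 arrays and did not pass the test against the 2-cell stage (adjusted p = 0.705, limma), while Hspa1a was highest (2.39 ± 0.27, adjusted p = 2.42e-08) with 1 8-cell array at 341. Of the heat shock and chaperone genes as a whole, 11 of 36 were higher (30.6%, against 24.2% of all genes) and 10 lower (27.8%, against 19.8%), with a median of 0.01. Hsp90aa1, the inducible cytosolic Hsp90, went the other way from Hspa1a. It read 1486, 1699, 1811 and 1772 at the 2-cell stage and 3922 to 10844 elsewhere, and all 3 of its probe sets were lowest (-1.78 ± 0.15, adjusted p = 1.67e-10). Dnaja1, a cofactor of Hsp70, was lowest as well (-1.74 ± 0.17), although the highest 2-cell array (1373) overlapped 1-cell arrays, which began at 1321, and it was not lowest when scaled to the hybridization controls.

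The endoplasmic reticulum stress list had 4 highest genes of 29 (13.8%, against 4.28% of all genes) and 0 lowest, while its 7 higher (24.1%) and 5 lower genes (17.2%), with a median of 0.07, were near the shares of all genes (24.2% and 19.8%). Trib3, a pseudokinase induced in that response, read 331, 353, 282 and 361 against a median of 38.8 and a highest value of 210 elsewhere, that value being a single blastocyst array (2.62 ± 0.27, adjusted p = 6.48e-09). Selenos, a membrane selenoprotein of the pathway that removes misfolded proteins, read 3034, 3629, 3704 and 3454. It was 16.5 ± 7.77 at the 1-cell stage and still 1887 ± 238 at the 8-cell stage, and all 3 of its probe sets were highest (3.86 ± 0.15, adjusted p = 3.4e-17). Ppp1r15a, which restores translation after stress, and Eif2ak3, the kinase PERK, were highest with differences of 1.90 ± 0.20 and 0.98 ± 0.15, but neither was highest under scaling to the hybridization controls.

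Among p53 targets and apoptosis genes 17 of 29 were higher (58.6%, against 24.2% of all genes) and 3 lower (10.3%, against 19.8%), with a median of 0.54. Of the 29 genes, 4 were highest (13.8%, against 4.28%) and 0 lowest. Sesn2, a stress-induced inhibitor of mTOR signalling, read 448, 568, 626 and 531 against at most 190 elsewhere (3.14 ± 0.25, adjusted p = 6.14e-11). Bid, which links death receptors to the mitochondrial path of apoptosis, read 92.1, 68.7, 128 and 102 against at most 40.5, with oocyte and 1-cell values of 1.0 to 5.0 (2.52 ± 0.23, adjusted p = 4.72e-10). Both were separate from all other arrays, and for both the 8-cell stage was next. Gadd45a and Gadd45b, growth arrest genes, differed by 1.60 ± 0.21 and 1.91 ± 0.21. Gadd45a was dim throughout, with 48.0 ± 6.57 at the 2-cell stage and at most 16.1 elsewhere, and it passed the filter only through its 2-cell arrays, as Bid did. It was not highest under scaling to the hybridization controls.

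The RNA polymerase II machinery was higher more often than lower, with 19 of 42 genes higher (45.2%, against 24.2% of all genes), 4 lower (9.52%, against 19.8%) and a median of 0.33. Its 3 highest genes were Cdk9, Polr2f and Taf12. Cdk9, the kinase that releases paused polymerase, read 499, 570, 637 and 723, against 70.9 ± 6.96 in oocytes and 305 ± 111 in blastocysts (1.94 ± 0.20, adjusted p = 4.45e-09). Polr2f, a subunit shared by the nuclear polymerases, had a 2-cell mean of 1992 ± 248 (1.40 ± 0.14). Cdk9 was not highest under scaling to the hybridization controls.

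Ribosome biogenesis genes were also higher more often, with 31 of 63 higher (49.2%, against 24.2% of all genes) and 9 lower (14.3%, against 19.8%), a median of 0.45, 4 highest (6.35%, against 4.28%) and 1 lowest. Beside Rrp9, Imp3, another U3 particle gene, read 753, 737, 631 and 653 against at most 471 elsewhere (1.49 ± 0.14, adjusted p = 8.48e-10). Rrn3, an initiation factor of RNA polymerase I, had a 2-cell mean of 438 ± 45.1 against at most 318 on any other array (1.29 ± 0.14). Rrn3 was not highest under scaling to the hybridization controls. By stage, 44 of the 63 were higher than at the 1-cell stage (22% of all genes) and 24 were lower than at the 8-cell stage (22.2% of all genes). Its 50 rRNA processing genes and its 13 polymerase I and III genes differed in the second of these: 21 and 3 were lower than at the 8-cell stage and 4 and 5 higher.

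The cell cycle lists held genes of both kinds. In the M phase list 15 of 47 genes were higher and 15 lower (31.9% each, against 24.2% and 19.8% of all genes), and 4 were highest (8.51%, against 4.28%) and 1 lowest. By stage, 12 of the 47 were higher (22.1% of all genes) and 23 lower (23.3%) than in the oocyte. Against the 1-cell stage 10 were higher (22%) and 23 lower (22.7%). Against the 8-cell stage 19 were higher (25.7%) and 6 lower (22.2%), and against the blastocyst 23 (33.6%) and 9 (23.9%). The 2 phosphatase genes Cdc25c and Cdc25a, which activate cyclin-dependent kinases, went in opposite directions. Cdc25c read 353, 396, 256 and 431, against 5.8 ± 2.75 in 1-cell and 99.2 ± 15.9 in 8-cell embryos (2.72 ± 0.17, adjusted p = 7.5e-13). Cdc25a read 194, 212, 241 and 243, against 1138 ± 228 in 1-cell and 741 ± 98.5 in 8-cell embryos (-1.45 ± 0.17, adjusted p = 3.75e-08). Its 2-cell values overlapped the lowest blastocyst array (196), and it was not lowest without 2-cell replicate 1 or 2 or without blastocyst replicate 1 or 2. Ccna2, cyclin A2, was highest with 3218, 3665, 3778 and 2950 against at most 2400 (1.48 ± 0.12, adjusted p = 3.09e-11), although its second probe set differed by 0.16.

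In the DNA replication list 11 of 47 genes were higher (23.4%, near the 24.2% of all genes) and 18 lower (38.3%, against 19.8%), and 5 were highest (10.6%, against 4.28%) and 4 lowest (8.51%, against 2.75%). Both E-type cyclins, which drive entry into S phase, were highest. Ccne1 read 610, 726, 906 and 1069, against 42.8 ± 15.5 in oocytes, 49.6 ± 18.8 in 1-cell and 477 ± 65.6 in 8-cell embryos (2.84 ± 0.19, adjusted p = 1.79e-12). It was not highest without 2-cell replicate 4. Ccne2 read 229, 212, 208 and 172 against at most 130 elsewhere (1.30 ± 0.17). Rfc3, of the clamp loader, was lowest with 49.1, 6.4, 34.7 and 49.1 against at least 83.4 elsewhere (-2.05 ± 0.22, adjusted p = 1.81e-08), and both of its probe sets were lowest. Gins1, of the replicative helicase, was lowest with a mean of 106 ± 22.8 (-1.68 ± 0.16). Helicase genes were themselves split, with Mcm6 highest (0.74 ± 0.12) and Mcm4 lowest (-1.41 ± 0.13). Mcm6, Mcm4, Gins1 and Ccne2 did not keep that place under scaling to the hybridization controls.

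DNA repair genes also went both ways, with 13 of 38 higher and 13 lower (34.2% each, against 24.2% and 19.8% of all genes), 4 highest (10.5%, against 4.28%) and 2 lowest (5.26%, against 2.75%). Prkdc, the catalytic subunit of DNA-dependent protein kinase, was highest with 197, 208, 180 and 176 against at most 146 (1.52 ± 0.21, adjusted p = 1.13e-06). Xrcc6, which encodes the Ku70 subunit of the same kinase, was lowest with 48.2, 35.5, 46.6 and 81.4 against at least 105 (-2.02 ± 0.18, adjusted p = 2.72e-10). Neither kept that place under scaling to the hybridization controls, where both remained called in the same direction. Xrcc1, a scaffold of single-strand break repair, was lowest in all settings (-1.97 ± 0.22).

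Among chromatin modifiers 21 of 58 were higher (36.2%, against 24.2% of all genes), 14 lower (24.1%, against 19.8%) and 3 highest (5.17%, near the 4.28% of all genes). Kdm5b, a demethylase of histone H3 lysine 4, read 1850, 1983, 2363 and 2236, against 73.3 ± 5.79 in oocytes, 132 ± 22.4 in 1-cell and 785 ± 47.9 in 8-cell embryos (3.05 ± 0.12, adjusted p = 3.14e-17). Hat1, a histone acetyltransferase of newly made histones, was lowest with 131, 125, 230 and 113 against at least 280 elsewhere (-1.79 ± 0.15, adjusted p = 6.98e-11). Srsf10 in the splicing list and Sqle in the cholesterol list were comparable to Kdm5b in their separation. Srsf10, a splicing regulator, read 1132, 1048, 1226 and 963 against at most 400 (2.91 ± 0.16, adjusted p = 2.28e-14), but it was the only 1 of 4 probe sets of the gene to be highest, and the lowest of them differed by -0.63. Sqle, which makes squalene epoxide, read 842, 946, 888 and 928 against at most 367 (2.02 ± 0.14, adjusted p = 2.04e-12). Msmo1, an enzyme further along that pathway, was lowest with 51.7 to 62.8 against at least 91.2 (-1.51 ± 0.19).

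The lowest genes were led by the proteasome, the complex that degrades ubiquitin-tagged proteins. Of 40 tested proteasome genes 26 were lower (65%, against 19.8% of all genes) and 4 higher (10%, against 24.2%) than the mean of the other stages. Their median was -0.92, and 9 were lowest (22.5%, against 2.75% of all genes) and 1 highest. In the core particle, which holds the proteolytic chamber, 10 of 14 were lower and 5 lowest. In the regulatory particle, which receives the substrate, 14 of 20 were lower and 3 lowest. The lowest genes were Psma7, Psma2, Psmb2, Psmb3, Psmb6, Psmc5, Psmd1, Psmd2 and the assembly factor Pomp. By stage, 27 proteasome genes were below the oocyte (23.3% of all genes), 32 below the 8-cell stage (22.2%) and 35 below the blastocyst (23.9%). Against the 1-cell stage, however, 14 were lower (22.7%) and 14 higher (22%). Scaled to the hybridization controls, 26 genes were still lower than the mean of the others and 2 higher, and 4 were lowest.

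Psma7, an alpha subunit of the core particle whose upstream sequence is shown above, read 122, 103, 110 and 94.6 at the 2-cell stage and 629 to 1565 on the other arrays. The other 4 stages were similar, from 775 ± 98.6 at the 8-cell stage to 1408 ± 96.6 at the 1-cell stage, so the 2-cell stage alone was low. The difference was -3.27 ± 0.12 (adjusted p = 1.91e-17), the widest margin of any lowest gene at -2.72 to the 8-cell stage, and both probe sets were lowest. Psmb3, a beta subunit, read 166, 95.7, 212 and 165, against 733 ± 125 at the 1-cell stage and 3181 ± 590 in blastocysts (-3.02 ± 0.15, adjusted p = 5.82e-15). For Psmb3 the later stages were far above the earlier ones, with 768 ± 110 in oocytes and 1843 ± 185 at the 8-cell stage, unlike those of Psma7. Psma2 (1111, 1068, 1448 and 1357, against at least 2881) and Psmc5, an ATPase of the regulatory particle (96.1, 139, 131 and 119, against at least 173), differed by -1.58 ± 0.11 and -1.97 ± 0.19. Psmd1 and Psmd2, scaffold subunits of the regulatory particle, differed by -1.34 ± 0.12 and -1.26 ± 0.16 with margins of -0.63 and -0.62. Psme3, which encodes the nuclear activator PA28 gamma, was the single highest gene of the list (370, 394, 598 and 384, against at most 252, 1.18 ± 0.15). Psme3, Psmb2, Psmd1 and Psmd2 lost their places when scaled to the hybridization controls, and Psmd2 also without 8-cell replicate 4.

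**Figure D3:**
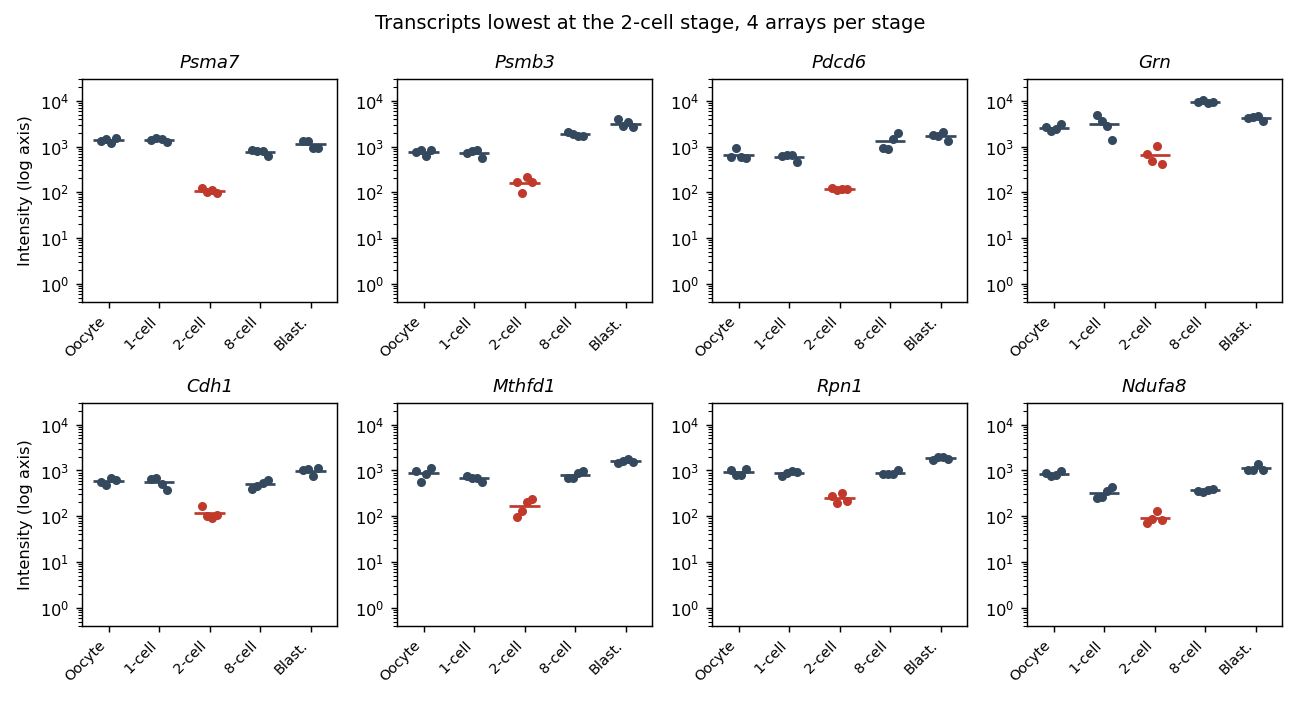
Intensity on each of the 20 arrays (log axis) for 8 genes with wide margins below every other stage, with 4 points per stage and a bar at the stage mean. The red 2-cell points lie below all 16 others in every panel, and the 2-cell mean of Psma7 is 107 while its other stage means lie between 775 and 1408.

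Other lowest genes with wide margins came from secretion, adhesion and metabolism. Pdcd6, a calcium-binding protein of membrane traffic, read 123, 112, 116 and 115 against at least 450 (-2.90 ± 0.17, adjusted p = 1.49e-13). Grn, which encodes the secreted growth factor progranulin, read 684, 486, 1028 and 418 against at least 1388, with 9468 ± 557 at the 8-cell stage (-2.73 ± 0.21, adjusted p = 1.83e-11), and all 3 of its probe sets were lowest. Cdh1, E-cadherin, the adhesion molecule of compaction, read 168, 98.8, 91.5 and 104 against 588 ± 91.3 in oocytes, 560 ± 149 in 1-cell embryos, 505 ± 101 in 8-cell embryos and 995 ± 167 in blastocysts. The maternal and the later embryonic levels of Cdh1 were thus both well above the 2-cell level (-2.36 ± 0.16, adjusted p = 3.61e-12). Mthfd1, of one-carbon metabolism, read 97.7, 130, 204 and 234 against at least 547, and all 3 of its probe sets were lowest (-2.46 ± 0.17, adjusted p = 4.38e-12). Rpn1, of the oligosaccharyltransferase, read 277, 196, 314 and 218 against at least 769, and 4 of its 5 probe sets were lowest (-2.07 ± 0.13, adjusted p = 4.43e-13).

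Some of the lowest genes were close to the floor of the array or were not borne out by a second probe set. Ap2s1, an adaptor subunit of clathrin-coated vesicles, read 3.1 to 9.3, and Mrps5, of the mitochondrial ribosome, read 3.4 to 10, both under the constant of 12.15 added before the logarithm. Their differences of -2.68 ± 0.24 and -2.79 ± 0.18 shrank to -1.53 and -1.59 with a constant of 48.6. For Ewsr1, an RNA-binding protein, Tm9sf3, a membrane protein of the secretory path, and Api5, an inhibitor of apoptosis, the representative probe set differed by -2.61, -2.12 and -2.15 while another tested probe set of the same gene differed by 0.37, 0.98 and 0.91. Of 181 highest genes with several tested probe sets, 53 had all of them highest and 10 had 1 or more called in the opposite direction, and of 132 such lowest genes the counts were 32 and 5.

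Oxidative phosphorylation genes were lower as a list, although not against every stage. Of 71 genes 55 were lower (77.5%, against 19.8% of all genes) and 2 higher than the mean of the others, with a median of -1.01, and 11 were lowest (15.5%, against 2.75%) and 0 highest. The 2-cell level was below the oocyte in 49 genes (23.3% of all genes were), below the 8-cell stage in 57 (22.2%) and below the blastocyst in 65 (23.9%). Against the 1-cell stage, 33 genes were higher (22% of all genes) and 16 lower (22.7%), with a median of 0.38. Of the 11 lowest genes 7 belonged to complex I, which takes electrons from NADH. Ndufa8 read 69.6, 88.0, 133 and 82.7, against 845 ± 102 in oocytes, 328 ± 83.4 in 1-cell embryos, 367 ± 24.5 in 8-cell embryos and 1105 ± 179 in blastocysts (-2.51 ± 0.15, adjusted p = 1.19e-13). Uqcrc2, a core subunit of complex III, read 441, 352, 758 and 326 against at least 1223, and both of its probe sets were lowest (-2.15 ± 0.18, adjusted p = 1.86e-10). Scaled to the hybridization controls, 55 genes were still lower and 2 were lowest.

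**Figure D4:**
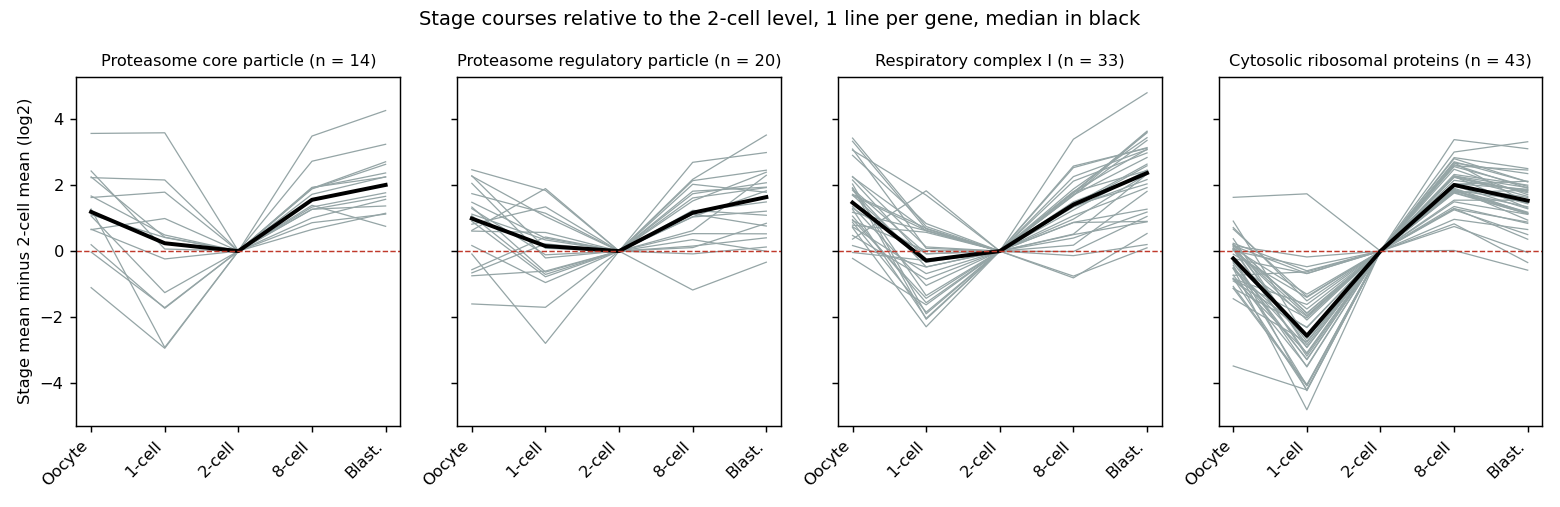
Mean of each stage minus the 2-cell mean (vertical axis, log2), 1 grey line per gene and the median in black, for the proteasome core particle (14 genes), its regulatory particle (20), respiratory complex I (33) and the cytosolic ribosomal proteins (43). The medians of the proteasome panels lie above 0 at every other stage, that of complex I dips below 0 at the 1-cell stage, and that of the ribosomal proteins lies 2.56 below 0 there.

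Cytosolic ribosomal protein genes lay between the 1-cell and the 8-cell level. Of 43 genes 39 were higher than at the 1-cell stage (22% of all genes), with a median of 2.56. Against the 8-cell stage 42 were lower (22.2% of all genes), with a median of -2.0. Against the mean of the other stages 5 were higher (11.6%, against 24.2% of all genes) and 15 lower (34.9%, against 19.8%), with a median of -0.24. The other scalings moved these counts both ways, to 14 higher and 11 lower (median -0.07) after quantile normalization, 2 and 16 (-0.38) after centring on the array median and 2 and 14 (-0.38) after scaling to the hybridization controls. Rpl37 was the only lowest gene of the list (191, 203, 226 and 274, against at least 305, -1.56 ± 0.18), and its probe set can detect further transcripts.

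Genes of splicing and tRNA charging were lower than the mean of the other stages more often than higher, although not against every stage. Of the spliceosome and SR protein genes 24 of 50 were lower (48%, against 19.8% of all genes) and 12 higher (24%, near 24.2%), with a median of -0.39. Among them 8 were lowest (16%, against 2.75%) and 2 highest. Against the oocyte 18 were higher (22.1% of all genes) and 19 lower (23.3%), and against the 1-cell stage 18 (22%) and 17 (22.7%). Against the 8-cell stage 6 were higher (25.7%) and 30 lower (22.2%), and against the blastocyst 5 (33.6%) and 29 (23.9%). Lsm3, of the U6 particle, read 386, 243, 327 and 250 against at least 774 (-2.12 ± 0.14, adjusted p = 1.85e-12). Snrpd3, a core Sm protein, read 129, 103, 167 and 155 against at least 266 (-1.75 ± 0.18), while another of its 3 probe sets differed by 0.94. Of the aminoacyl-tRNA synthetase genes 11 of 19 were lower (57.9%, against 19.8% of all genes) and 4 higher, and 3 were lowest (15.8%) and 0 highest. By stage, 4 were higher and 10 lower than in the oocyte, and 7 higher and 7 lower than at the 1-cell stage. Against the 8-cell stage 1 was higher and 9 lower, and against the blastocyst 0 were higher and 15 lower. Lars, the leucine enzyme, read 74.5, 91.0, 111 and 94.6 against at least 234 (-1.82 ± 0.13, adjusted p = 1.11e-11). Farsa, a subunit of the phenylalanine enzyme, read 2.8, 34.1, 37.6 and 33.8 against at least 61.4 (-1.83 ± 0.26, adjusted p = 1.14e-06). Nup85, a nucleoporin, was lowest with a mean of 292 ± 24.2 against at least 517 (-1.51 ± 0.12), in a nuclear pore list with 15 of 47 genes higher (31.9%, against 24.2% of all genes) and 13 lower (27.7%, against 19.8%). It was not lowest when scaled to the hybridization controls.

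**Figure D5:**
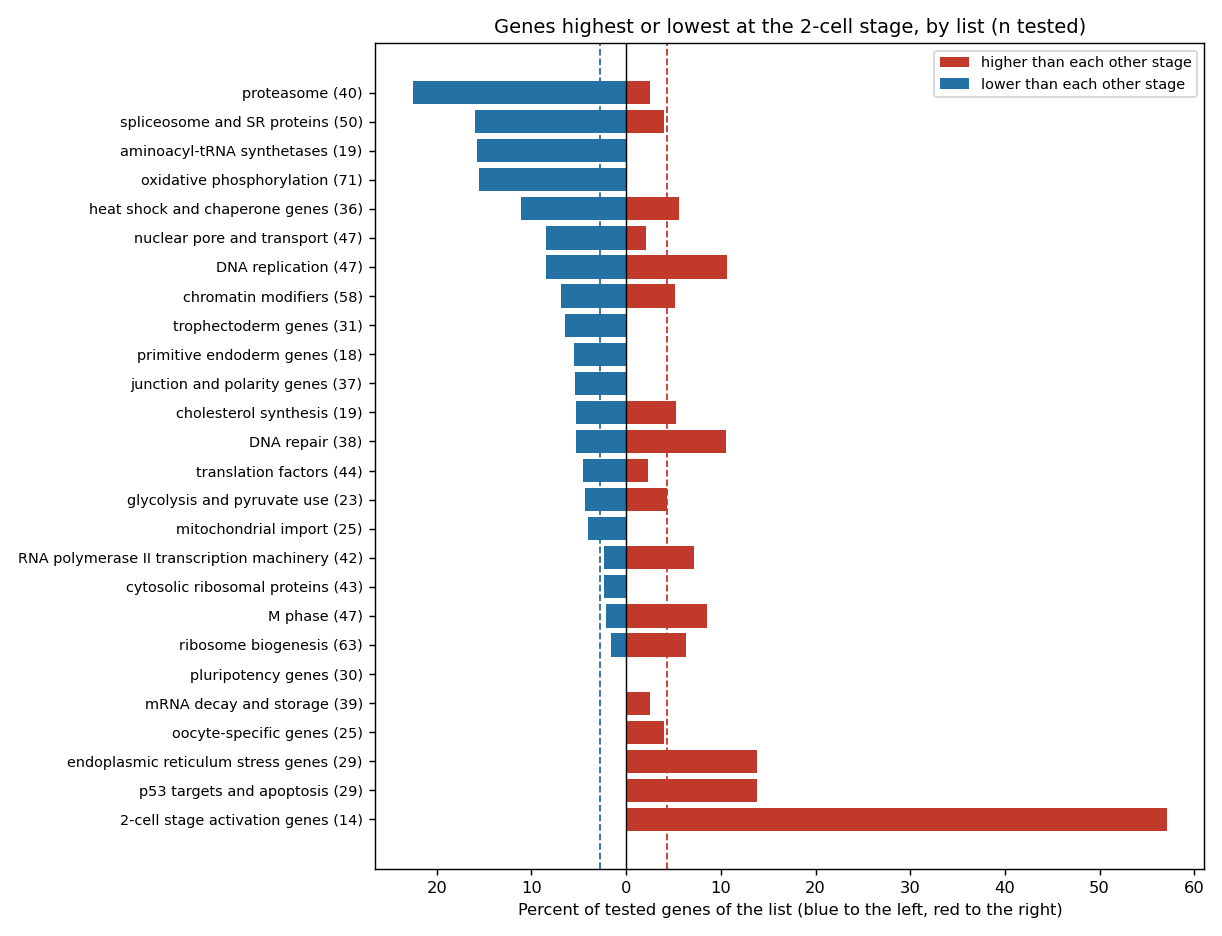
Percent of the tested genes of each list that were highest (red, to the right) or lowest (blue, to the left) at the 2-cell stage, with the number tested in brackets and dashed lines at 4.28% and 2.75%, the shares over all genes. The 2-cell activation list reaches 57.1% on the right and the proteasome list 22.5% on the left.

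Maternal transcripts were more often below than above their oocyte level at the 2-cell stage, and mostly above later stages. Of 25 oocyte-specific genes 17 were higher (68%, against 24.2% of all genes) and 2 lower (8%, against 19.8%) than the mean of the other stages. Against the oocyte 14 were lower (23.3% of all genes) and 2 higher (22.1%). In turn 23 were higher than at the 8-cell stage (25.7% of all genes) and 24 higher than in the blastocyst (33.6%). Gdf9, an oocyte growth factor, was 7590 ± 709 in oocytes, 9208 ± 1021 in 1-cell, 1448 ± 187 in 2-cell and 177 ± 31.1 in 8-cell embryos. Its difference from the mean of the others, 0.53 ± 0.12, depended on which stages entered that mean. Btg4, an adaptor of maternal mRNA decay, was 5470 ± 1542 in 2-cell, 11199 ± 1038 in 1-cell and 72.5 ± 27.1 in 8-cell embryos. Mos, a kinase of meiotic arrest, read 35.2, 4.1, 129 and 5.7 at the 2-cell stage and 1065 ± 404 at the 1-cell stage. Omt2a, an oocyte maturation gene, was the only highest gene of the list (3245, 2891, 3178 and 2578, against 1906 to 2258 at the 1-cell stage), by a margin of 0.48 that was lost in 6 of 35 settings.

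Genes of the blastocyst lineages were mixed. Of 30 pluripotency genes 7 were higher and 7 lower (23.3% each, near the 24.2% and 19.8% of all genes), and 0 were highest or lowest. By stage, however, 17 of the 30 were higher (22.1% of all genes) and 3 lower (23.3%) than in the oocyte. Against the 1-cell stage 16 were higher (22%) and 4 lower (22.7%). Against the 8-cell stage 2 were higher (25.7%) and 19 lower (22.2%), and against the blastocyst 6 (33.6%) and 13 (23.9%). Nanog read 3.2, 7.1, 17.3 and 5.2 at the 2-cell stage, beside 9.7 ± 6.33 in 1-cell embryos and far under the 8-cell stage (325 ± 74.3). Cdx2, the trophectoderm regulator, read 12.2 ± 2.25 in 2-cell embryos and 449 ± 58.7 in blastocysts. Pramel7, a pluripotency-associated leucine-rich repeat gene, read 1835, 2275, 2983 and 2433 in 2-cell embryos, 3.6 ± 0.56 in oocytes and 2345 ± 185 in blastocysts. Of 31 trophectoderm genes 16 were lower (51.6%, against 19.8% of all genes) and 2 higher. Against the blastocyst 23 were lower (23.9% of all genes) and 3 higher, and against the 8-cell stage 13 (22.2%) and 0. Against the oocyte, however, 5 were lower and 10 higher, and against the 1-cell stage 5 and 7. Without the blastocyst in the mean 7 were lower and 6 higher. Fgfr2 (-1.18 ± 0.17) and Dab2 (-1.13 ± 0.13) were lowest, on 1 of 2 and 1 of 3 probe sets, though not under scaling to the hybridization controls. Of 37 junction and polarity genes 19 were lower (51.4%) and 9 higher (24.3%). Against the blastocyst 25 were lower and 6 higher, and against the 8-cell stage 14 and 7. Against the 1-cell stage 12 were lower and 8 higher, and against the oocyte 10 and 8. Cdh1 and Tjp1, the tight junction scaffold ZO-1 (-0.64 ± 0.13), were lowest. Tjp1 too lost that place under the same scaling.

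Markers of other cells that could accompany embryos were measured as well. Of the cumulus and granulosa markers 0 of 4 tested were called (44% of all genes were). Their summed intensity was 315 to 469 at the 2-cell stage and 260 to 683 elsewhere. Of the sperm and testis markers 1 of 6 was higher (16.7%, against 24.2% of all genes) and 0 lower (19.8% of all genes). The higher one was Ldhc, at 173 ± 64.4, which was also 140 ± 77.3 in oocytes. The summed intensity of these markers was 470 to 724 against 136 to 750 elsewhere. Of the oviduct and blood markers 3 of 9 were higher (33.3%, against 24.2% of all genes) and 1 lower (11.1%, against 19.8%). Their sum was 618 to 1188 against 266 to 3553. Ovgp1, the oviduct glycoprotein, read 765, 614, 381 and 220 at the 2-cell stage and 46.5 to 3105 at the 8-cell stage, and its probe set is of a class that can detect further transcripts. The part of these markers in the results above was not tested.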

How the data were processed

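Total RNA of 20 samples, 4 per stage, was measured on 1 array each. The deposited values are linear probe set intensities, judged from their range, and the trimmed mean of every array lies at 150.05 to 150.08 (without 2% of probe sets at each end), so they had been scaled before deposit. No software, background step or detection call is given in the sources used here. Of 22690 probe sets 64 controls were left out. A probe set was tested if 4 or more arrays exceeded 33.0 (the 40th percentile of all values). Values were taken as log2(intensity + 12.15) and fitted with limma 3.58.1 in R 4.3.3 (stage means; eBayes with trend; 15 residual df), with Benjamini-Hochberg adjustment of the p-values over all 17193 probe sets tested. Symbols came from the platform annotation, matched to RefSeq on GRCm38.p6, and 20380 probe sets had 1 symbol, 691 several and 1555 none. A gene was represented by its brightest probe set. The procedure was tested on simulated data.

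The genes named are, in each direction, the 15 with the widest margin among genes with an established symbol (not one such as Gm and digits), no overlap of single arrays and a level above the median of tested probe sets in the higher group, with up to 2 highest and 2 lowest members of each list and a set of fixed markers. Further genes, Gm20767 among them, were added after their values were seen. The members and lists were chosen with earlier results of these data known. Alternatives changed the scaling, the added constant (3.038 or 48.6), the intensity filter (none or 71.8), the trend, array weights, the replicate block, the stages in the mean, the probe set rule, the threshold and each array in turn.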

Additional observations from a re-analysis of the deposited data

Results flagged for a closer look

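Within groups of 4 arrays, 169 were checked for 1 array far from the other 3, and 7 passed Dixon's 95% critical value, where chance flags about 1 in 20 groups. The 7 do not exceed that rate. Genes were checked in the 2-cell group only, and control and summed marker measures in every stage. Farsa read 2.8 on 2-cell replicate 1 and 33.8 to 37.6 on the other 2-cell arrays. Psme3 read 598 on 2-cell replicate 3 and 370 to 394 on the others. The other 5 concern other stages. The Gapdh 3′ to 5′ ratio was 2.82 on oocyte replicate 2 (others 5.22 to 5.39). The cre hybridization control read 17320 on 1-cell replicate 1 (others 10758 to 11469), and the mean log2 of all hybridization controls was 10.7 there (others 9.98 to 10). The summed intensity of cumulus and granulosa markers was 310 on 1-cell replicate 3 (others 432 to 450). That of sperm and testis markers was 136 on blastocyst replicate 1 (others 228 to 233).

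Among control probe sets outside the comparison, the one for the 3′ end of the mouse transferrin receptor averaged 721 ± 138 in 2-cell embryos, 314 ± 52.8 in 8-cell embryos and 19.9 to 27.1 at the other 3 stages. Other probe sets of this transcript had the 8-cell mean above the 2-cell mean. The middle control averaged 52.0 in 2-cell and 62.0 in 8-cell embryos, and the 5′ control 47.4 and 61.1. The representative probe set of the gene, Tfrc, read 782 ± 153 in 2-cell and 3766 ± 464 in 8-cell embryos. Of its 3 tested probe sets, 0 were highest at the 2-cell stage.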

How the results depend on the processing

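The 15 genes in each direction named by the margin rule kept their direction, their call and their place as highest or lowest under every alternative run on them. They were chosen for wide margins without overlap in these same data. Their stability was therefore largely fixed by that choice and is no separate support, and several genes named by other rules lost their places. Counts below are of probe sets, against 4259 higher, 3340 lower, 759 highest and 454 lowest. Scaling to the hybridization controls gave 2594 higher, 360 highest and 128 lowest. With 1 probe set per gene the counts were 2484, 2028, 439 and 283, since fewer features are tested. A difference of at least 2-fold left 1942, 1181, 345 and 114. Taking the other 16 arrays as 1 group, whose spread then holds the differences between stages, left 1035 higher and 645 lower. Without the 1-cell stage in the comparison 1251 were highest and 905 lowest, and without the 8-cell stage 1332 and 819, since fewer stages have to be passed. Leaving out each array in turn gave 3791 to 4318 higher, 2964 to 3438 lower, 660 to 762 highest and 394 to 462 lowest. Without detection calls, signal over background was not judged per array, and levels under the added constant of 12.15 carry little information on fold. Among single genes, the Gdf9 difference turned to -0.28 (adjusted p = 0.0736, limma) without the 8-cell stage and to -0.70 (adjusted p = 5.25e-05) without the blastocyst, and the Arg2 difference turned to -0.09 (adjusted p = 0.741) without the blastocyst.

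With the replicate number as a block, 4258 were higher, 3343 lower, 752 highest and 457 lowest. The deviations of 40 same-numbered pairs of arrays correlated at -0.161 to 0.178 (mean 0.013), and those of 120 other pairs at -0.206 to 0.275 (mean -0.004). Above 0.1 lay 6 of the 40 and 11 of the 120. These overlapping ranges cannot show whether arrays of the same number shared a collection or a batch, which the labels do not state.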
